A study of Mus musculus with 2 samples.

Results

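The interstitial progenitor markers are 10 genes that mark the early, uncommitted stromal cells of subcutaneous fat: Dpp4, Pi16, Cd55, Anxa3, Sema3c, Wnt2, Ackr3, Cd248, Pcolce2 and Dact2. They were followed through microarrays of PDGFRα+ cells, and a gene was used where a probe set named that gene alone. All 10 had such a probe set, each exactly 1, among 19938 genes measured in this way. The cells came from the stromal vascular fraction, the non-adipocyte cells released by collagenase from inguinal white fat, and were sorted with a PE-coupled antibody to PDGFRα, a growth factor receptor of fibroblasts and adipocyte precursors. The mice were females aged 6 weeks that had doxycycline at postnatal day 1. The floxed group carried floxed Sox9, and the other group was Sox9 PreASKO, a name that the labels do not spell out. The Cre driver behind PreASKO, and whether the floxed animals carried it, are not given in the sources used here. The RNA of 3 animals was pooled for 1 array per group, per the series' design text, so 2 arrays were compared, and no value below has an error, a replicate check or a p-value. The RNA is labelled both as total RNA by its extraction and as polyA RNA by its molecule field.

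In subcutaneous fat, DPP4+ cells lie in the interstitial layer that surrounds the fat lobules and can give rise to committed preadipocytes and then adipocytes. PI16 marks a closely related fibroblast state found in many organs, often called universal fibroblasts. The study asked how loss of Sox9 and Meis1 bears on the step from Pref-1+ to PDGFRα+ cells. The values of the markers in the sorted PDGFRα+ cells are described here. The series holds no Pref-1+ sample, so these values do not place the cells along that step.

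The sorted cells of both groups carried the interstitial markers at similar values. None of the 10 markers differed by 1.5-fold, the limit the series itself names, while 3.64% of all genes did, 1.66% higher and 1.98% lower, as did 2.15% of the genes above background on both arrays. At such shares a count of 0 among 10 genes is near the background and is no result about the markers. The same holds for the other lists below with none past 1.5-fold. In log2 units of the deposited values, in which 1.5-fold is 0.585, the differences PreASKO minus floxed ran from -0.34 for Sema3c to 0.16 for Wnt2. The median was -0.04, against 0 over all genes. There were 7 markers with a lower value and 3 with a higher value in PreASKO, against 47.98% lower and 48.2% higher among all genes. Since the RNA is from bulk sorted cells, fewer cells of a type and less RNA of a gene per cell cannot be told apart.

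All 10 markers lay above background on both arrays. The mark for background was 4.64, the 95th percentile of 1027 olfactory receptor genes on the array where it was higher, on the premise that fat stroma does not use these genes. No olfactory receptor gene reached the value of 8 of the markers on either array. For Wnt2, 2 olfactory receptor genes were higher on the floxed array and 1 on the PreASKO array. Dact2 was dim: 17 olfactory receptor genes exceeded it in floxed and 18 in PreASKO. Probes differ in how brightly they bind, so the values of different probe sets give no order of expression among genes. Values are set against other probe sets here only to mark background, to sort probe sets by brightness and to sum a list on each array.

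**Figure D1:**
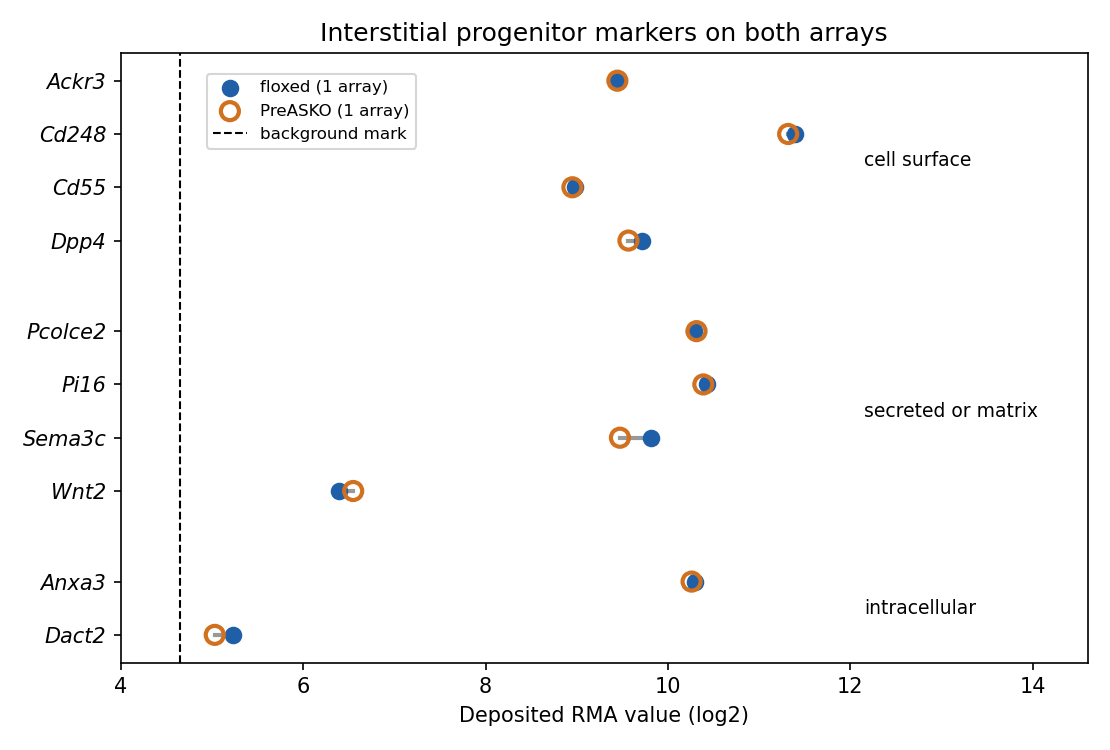
Deposited values (log2, horizontal axis) of the 10 markers on the floxed array (filled) and the PreASKO array (open), grouped by where the protein acts, with the background mark of 4.64 dashed. Filled and open points nearly coincide for most markers, and Sema3c shows the widest gap, from 9.81 to 9.47.

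The cell surface markers include the proteins by which these cells are usually sorted. Dpp4 encodes CD26, a membrane peptidase that trims dipeptides from the ends of chemokines and hormones. It was at 9.71 in floxed and 9.57 in PreASKO, a difference of -0.15 or 1.11-fold lower. A difference at least that negative occurred in 25.9% of all genes. Cd55, which encodes decay-accelerating factor, a lipid-anchored inhibitor of complement, was at 8.98 and 8.95, a difference of -0.03. Ackr3, an atypical receptor that takes up and clears the chemokine CXCL12, was at 9.44 on both arrays, with a difference of 0.01. Cd248 encodes endosialin, a lectin-like glycoprotein of stromal cells and pericytes, and was at 11.4 and 11.3, a difference of -0.07. The median difference of these 4 surface markers was -0.05, with 3 lower and 1 higher.

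The secreted markers held the markers at both ends of the range. Sema3c, a secreted guidance cue that signals through neuropilins and plexins, was at 9.81 in floxed and 9.47 in PreASKO. The difference of -0.34, or 1.26-fold lower, was the most negative among the 10 markers, and 9.08% of all genes were at least as low. Wnt2, a Wnt ligand, was at 6.39 in floxed and 6.55 in PreASKO, a difference of 0.16 or 1.11-fold higher. A difference at least that positive occurred in 25.5% of all genes. Pi16, a CAP-superfamily protein named as a peptidase inhibitor, was at 10.4 on both arrays and differed by -0.04. Pcolce2, an enhancer of the enzymes that remove the C-terminal propeptide of procollagen, was at 10.3 on both arrays and differed by 0.03. The median of these 4 genes was -0.01, with 2 lower and 2 higher.

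The 2 intracellular markers had lower values in PreASKO, as did 47.98% of all genes, so their shared sign is no result about them. Anxa3, a calcium-dependent phospholipid-binding protein, was at 10.30 and 10.26, a difference of -0.04. At least as low were 42.3% of all genes. Dact2, a Dishevelled-binding modulator of Wnt and TGF-beta family signalling, was at 5.23 and 5.03, a difference of -0.20 or 1.15-fold lower. For this difference the share of all genes at least as low was 19.5%. Dact2 lay below 5.43 and 5.33, the 99th percentiles of the olfactory receptor genes in floxed and PreASKO, so its fold is uncertain.

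The promoters of Dpp4 and Pi16, the genes that give the state its usual names, and of Sema3c, the marker with the most negative difference, are shown because the study concerns the transcription factors SOX9 and MEIS1. The windows run from 250 bases before to 50 bases after the annotated start, 5′ to 3′ in the direction of transcription, from RefSeq on GRCm38.p6. Capitals mark the SOX core letters ACAAT and the MEIS core letters TGACAG on either strand, which do not overlap each other in these windows.
Dpp4 (chr2:62412182-62412481, minus strand): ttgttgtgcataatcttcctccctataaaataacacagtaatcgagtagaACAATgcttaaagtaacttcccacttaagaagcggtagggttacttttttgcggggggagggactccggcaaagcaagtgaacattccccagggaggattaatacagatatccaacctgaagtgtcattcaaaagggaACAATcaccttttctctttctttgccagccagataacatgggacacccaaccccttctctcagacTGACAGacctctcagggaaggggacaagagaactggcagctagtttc
Pi16 (chr17:29318632-29318931, plus strand): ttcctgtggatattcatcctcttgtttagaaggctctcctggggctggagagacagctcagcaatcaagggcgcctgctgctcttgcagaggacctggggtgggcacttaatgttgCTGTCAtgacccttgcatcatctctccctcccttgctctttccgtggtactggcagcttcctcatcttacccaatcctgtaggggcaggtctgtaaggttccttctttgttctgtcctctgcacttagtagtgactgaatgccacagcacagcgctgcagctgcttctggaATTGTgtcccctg
Sema3c (chr5:17574566-17574865, plus strand): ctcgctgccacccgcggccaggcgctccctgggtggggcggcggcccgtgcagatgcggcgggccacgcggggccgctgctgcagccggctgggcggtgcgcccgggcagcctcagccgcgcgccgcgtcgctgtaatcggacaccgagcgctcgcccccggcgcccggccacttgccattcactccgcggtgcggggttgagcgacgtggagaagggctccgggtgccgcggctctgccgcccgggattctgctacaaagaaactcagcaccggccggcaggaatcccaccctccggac

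A RefSeq promoter was found for 8 of the 10 markers, all but Anxa3 and Cd248. The SOX letters stood in 2 of these 8, Dpp4 and Pi16, and in 31.0% of 32851 RefSeq promoter windows of the same length. In Dpp4 they began at positions -200 and -62 from the start, and in Pi16 they stood on the opposite strand with their leftmost base at position 38 after it. The MEIS letters stood in the same 2 promoters, beginning at position 4 after the start in Dpp4 and with its leftmost base at position -134 on the opposite strand in Pi16, and in 19.2% of all windows. Sema3c had neither, and its window was rich in CG dinucleotides, with 42, against 4 in Dpp4, 3 in Pi16 and a median of 7 over all windows. The differences of the 2 genes with both motifs were -0.15 and -0.04, and those of the 6 without ran from -0.34 to 0.16. The 6 include both ends of the range over all markers, so the 2 had to lie inside it. Nothing about the motifs follows from this. Short letter matches are common and are a description of these windows, not evidence of binding, which was not measured here.

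Most markers differed by little. Differences under 0.1 in either direction were found for 6 of the 10 markers, against 34.2% of all genes and 37.6% of the 11015 genes above the background mark on both arrays. The median size of the difference, without its sign, was 0.06 for the markers and 0.16 for all genes. Brightness bears on this comparison, since 8 of the markers were bright. Among the 791 genes at or above the mean level of Cd55, the dimmest of these 8, the median size was 0.107 and 47.8% differed by under 0.1, against 0.04 and 6 of 8 for the bright markers. With 8 genes this contrast was not tested. Within the same 791 bright genes, 1.64% had a difference as low as that of Sema3c or lower. Sema3c is the lowest of the 8 and was picked by its value, so this share does not mark it as unusual. Dpp4 and Sema3c, the bright markers that differed by more than 0.1, were both lower in PreASKO.

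**Figure D2:**
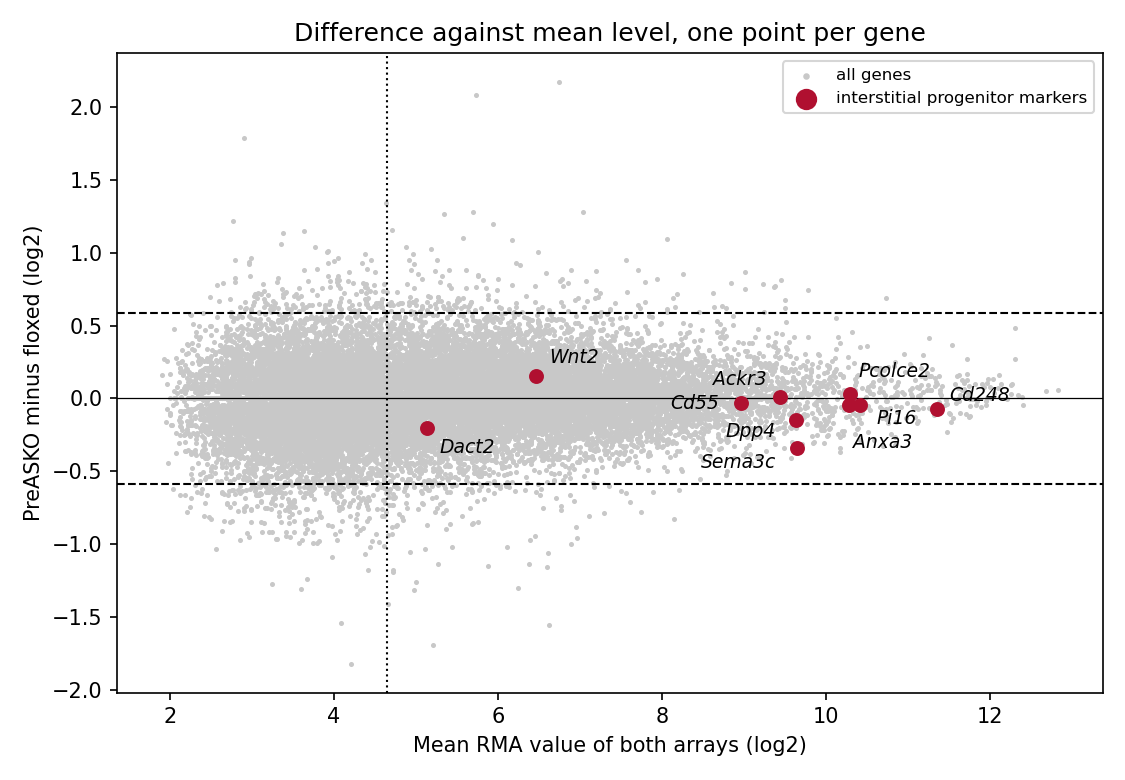
Difference PreASKO minus floxed (log2, vertical axis) against the mean value of both arrays (log2, horizontal axis) for 19938 genes in grey and the 10 markers in red, with 1.5-fold dashed and the background mark dotted. The markers lie between -0.34 and 0.16, all inside the dashed lines and 8 of them at the bright end.

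Smaller limits were read in the same way. At 1.2-fold only Sema3c among the markers was past the limit, 1 of 10, where 27.7% of all genes and 22.5% of those above background were. At 1.1-fold 4 markers were past it, Wnt2 higher and Sema3c, Dact2 and Dpp4 lower, where 55.2% of all genes and 50.5% of those above background were. Of all genes 27.8% were higher and 27.4% lower by that much.

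The sort marker was read beside the 10 markers. Pdgfra was at 9.86 in floxed and 9.55 in PreASKO, a difference of -0.31. Of the 10 markers, 9 had a less negative difference than Pdgfra, by a median of 0.27 over all 10, and only Sema3c had a more negative one, by 0.03. Among all genes 9.08% were at least as low as Sema3c, so this count is near the share over all genes. It is no result about the markers. Pdgfra was also the most negative of the 7 defining fibroblast genes, whose median was -0.05. The other defining fibroblast genes, Dcn, Lum, Col1a2, Col3a1, Col1a1 and Pdgfrb, ran from -0.21 for Col1a1 to 0.04 for Col3a1, and all 7 lay above background on both arrays. Sox9, the targeted gene, was at 5.25 and 4.97, a difference of -0.27 that did not reach 1.5-fold. Like Dact2, it stayed under the olfactory 99th percentiles of 5.43 in floxed and 5.33 in PreASKO. The difference of Sox9 is therefore uncertain and gives no check of the labels. The position of its probe set with respect to the floxed exons was not examined. Meis1 differed by -0.11 and Dlk1, which encodes Pref-1, by 0.07.

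Other genes of the interstitial or universal fibroblast state differed in both directions, with a median near 0 but on the other side of it. Of 24 listed genes 21 were measured, all above background on both arrays. Of these, 13 were higher and 8 lower in PreASKO, with a median of 0.06 and none past 1.5-fold. Uchl1, a ubiquitin hydrolase, was at 5.14 and 5.62, a difference of 0.48. Its floxed value lay under the olfactory 99th percentile of 5.43, so this difference is uncertain. Tppp3, a tubulin-binding protein of tendon sheath and fascia progenitors, was at 8.26 and 8.67, a difference of 0.40. Efhd1, a calcium-binding mitochondrial protein, differed by 0.26. On the lower side stood the ferritin receptor gene Scara5 (-0.25), the protein C receptor gene Procr (-0.21) and the receptor kinase gene Axl (-0.196). Bmp7, a BMP ligand reported from DPP4+ cells, was at 6.84 and 6.92 and differed by 0.07. The surface glycoprotein genes Cd34 and Thy1 differed by -0.06 and 0.17, and Creb5, a transcription factor of the state, by 0.23. The median size without sign was 0.12, against 0.06 for the 10 markers and 0.14 for all genes above background on both arrays. These contrasts were not tested. Ly6c1 was named only by probe sets shared with Ly6c2, and Ly6a and Fbn1 had no named probe set here.

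The committed and regulatory stromal genes, which mark the cells that follow or restrain the interstitial ones, had a median of -0.02 over 24 measured genes, with 11 higher, 13 lower and none past 1.5-fold. Cd36, a fatty acid transporter, differed by 0.38, the lipoprotein gene Apoe by 0.37 and the chemokine gene Cxcl14 by 0.24. F3, which encodes CD142, a marker of regulatory stromal cells, differed by -0.38, the growth factor gene Clec11a by -0.25 and the monooxygenase gene Fmo2 by -0.24. Icam1, the surface marker of committed preadipocytes, was at 7.59 and 7.78, a difference of 0.196. Cd36 and Apoe are also made by macrophages, whose markers were higher in PreASKO by a median of 0.46, and the part of those cells in these differences was not tested. The medians of the interstitial markers (-0.04), the further interstitial genes (0.06) and the committed and regulatory genes (-0.02) lay within 0.1 of each other, with no test of their difference.

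**Figure D3:**
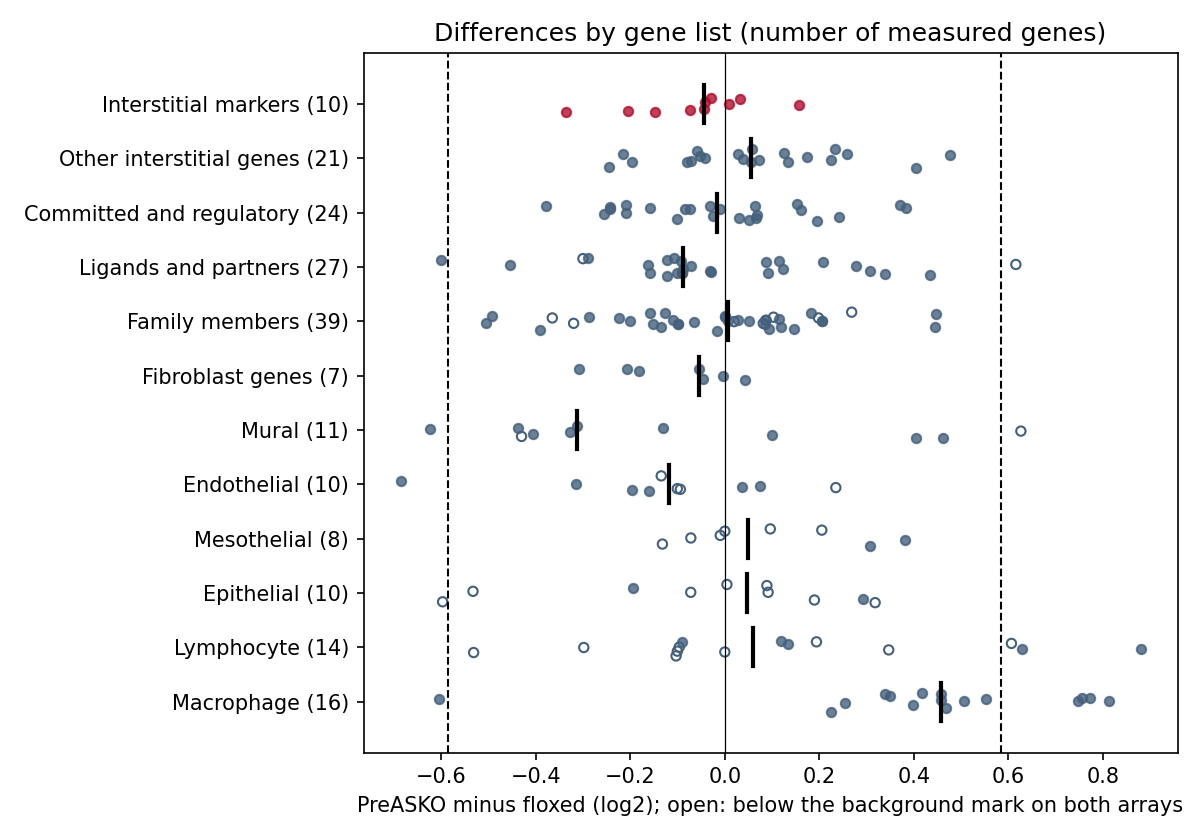
Difference PreASKO minus floxed (log2, horizontal axis) for each measured gene of 12 lists, with the median as a black bar, 1.5-fold dashed and genes below background on both arrays open. The interstitial, committed and fibroblast lists centre near 0, with the interstitial markers at -0.04. The macrophage list centres at 0.46, the mural list at -0.31 and the endothelial list at -0.12.

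None of the 23 partners of the markers above background on both arrays passed 1.5-fold, where 2.15% of all such genes did. Such a count is near that share and is no result about the partners. Of 27 measured ligands, receptors and binding partners 10 were higher and 17 lower, with a median of -0.09. The CXCL12 axis that connects Dpp4 and Ackr3 was near level: the chemokine gene Cxcl12 was at 7.25 and 7.34, a difference of 0.09, and its signalling receptor gene Cxcr4 differed by -0.07. Ada, adenosine deaminase, which binds CD26 in humans, was at 6.47 and 6.91, a difference of 0.43. Adgre5, the gene of CD97, which binds CD55, was at 7.60 and 7.94, a difference of 0.34. Both are well expressed by leukocytes, and macrophage markers were higher in PreASKO by a median of 0.46, as above. Their part in these differences was not tested.

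The receptors for semaphorin 3C differed in both directions. Nrp1 and Nrp2, the neuropilins that bind the ligand, differed by -0.03 and 0.28. Plxnd1, a plexin co-receptor, was at 6.43 and 6.64, a difference of 0.21. Plxna2 was at 5.10 and 4.65, a difference of -0.45, but its PreASKO value lay at the background mark. Among Wnt receptors and transducers, Fzd7 was at 7.02 and 6.73, a difference of -0.29. Fzd9, Fzd2 and Fzd1 differed by -0.16, -0.12 and -0.10, while Fzd4 was higher, by 0.09. Lrp5 and Lrp6 differed by -0.11 and -0.09, and the Dishevelled genes Dvl1, Dvl2 and Dvl3 by 0.11, -0.12 and -0.09. The procollagen C-proteinase gene Bmp1, whose product PCOLCE proteins enhance, differed by -0.03. Its relative Tll1 was at 5.03 in floxed and under the mark in PreASKO, at least 1.31-fold lower with the latter value raised to the mark. Mmrn2, a matrix partner of CD248-family lectins, was below background in floxed and at least 1.09-fold higher. Fzd8 passed 1.5-fold but was below background on both arrays, so no fold is given.

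Family members of the markers had a median of 0.01 over 39 measured genes, with 20 higher, 18 lower, 1 identical and none past 1.5-fold. Dact1, which like Dact2 encodes a Dishevelled-binding protein and is known as a preadipocyte gene, was at 7.33 and 6.84. Its difference of -0.49 had the same sign as that of Dact2 at a level well above background, while Dact3, near the mark, differed by 0.18. Wnt2b, the closest relative of Wnt2, was at 5.17 and 4.66, a difference of -0.50 opposite in sign to that of Wnt2, with its PreASKO value near the mark. Crispld1, a CAP-domain relative of Pi16, was at 9.18 and 8.79, a difference of -0.39, and Crispld2 differed by -0.22. Among class 3 semaphorins Sema3d differed by -0.29, Sema3a by 0.21 and Sema3b by 0.45. Dpp9, a cytoplasmic dipeptidyl peptidase, differed by 0.45 and Dpp8, its nearest relative, by -0.20, whereas Fap, the membrane protease closest to DPP4, differed by -0.14. Pcolce, the other procollagen C-proteinase enhancer gene, was at 11.4 and 11.3 and differed by -0.11. The abundant annexin genes Anxa1, Anxa2 and Anxa5 differed by 0.12, 0.21 and -0.07.

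Several of the markers are also made by other cells, so the markers of those cells were read beside them. Dpp4 is made by T cells and Anxa3 by epithelia, and mesothelium can carry both. Of 8 mesothelial markers 6, Upk3b, Upk1b, Msln, Lrrn4, Wt1 and Krt18, were below background on both arrays. The exceptions were the keratin genes Krt8 (0.38) and Krt19 (0.31). Of 10 epithelial markers 8 were below background on both arrays, and the claudin genes Cldn3 and Cldn4, both dim, differed by 0.29 and -0.195. Of 14 measured lymphocyte markers 9 were below background on both arrays, while Cd3e, of the T cell receptor complex and dim in floxed, was at 4.96 and 5.84, a difference of 0.88. Cd8b1 was below background in floxed and at least 1.06-fold higher, Cd8a differed by 0.13 and the B cell gene Cd79b by -0.09. The summed linear signal of the list, on the log2 scale, was 8.17 in floxed and 8.36 in PreASKO. This sum includes the 9 genes below background on both arrays. The median difference of the list was 0.06, and 0 with values raised to the background mark.

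Cd248 is made by pericytes, and mural markers were lower in PreASKO by a median of -0.31 over 11 genes, with a summed level of 9.24 and 9.02. This median was -0.13 with values raised to the background mark. Kcnj8, a potassium channel gene of pericytes, was at 5.98 and 5.36, 1.54-fold lower, Acta2 differed by -0.44 and Abcc9 by -0.41. Notch3 differed by 0.46, Rgs5 by 0.10, and Myh11 was below background in floxed and at least 1.14-fold higher. Ackr3 is made by some endothelial cells, whose markers had a median of -0.12 over 10 genes and a summed level of 9.09 and 8.92. With values raised to the mark that median was 0. The VEGF receptor gene Kdr was at 5.55 and 4.86, 1.61-fold lower. Its PreASKO value lay above the background mark but under the olfactory 99th percentile of 5.33, so its fold is uncertain. Tek differed by -0.197, Cdh5 by 0.07 and Egfl7 by 0.04. Pecam1, under the background mark in PreASKO, was at least 1.11-fold lower. Cd248 and Ackr3 themselves differed by -0.07 and 0.01, and the part of mural and endothelial cells in these values was not tested.

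Among the 12 lists, the macrophage markers had the median farthest from 0. All 16 lay above background on both arrays, and 15 were higher in PreASKO, where 48.2% of all genes were. Higher by 1.5-fold were 4 of them, H2-Ab1 (0.81), Tyrobp (0.77), C1qa (0.75) and Cd74 (0.75), where 1.66% of all genes were. The fractalkine receptor gene Cx3cr1 was 1.52-fold lower, where 1.98% of all genes were lower by 1.5-fold. The summed level of the macrophage markers was 13.0 and 13.5, and that of the 10 interstitial markers was 13.2 on both arrays. The part of macrophage RNA in the marker differences was not tested.

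**Figure D4:**
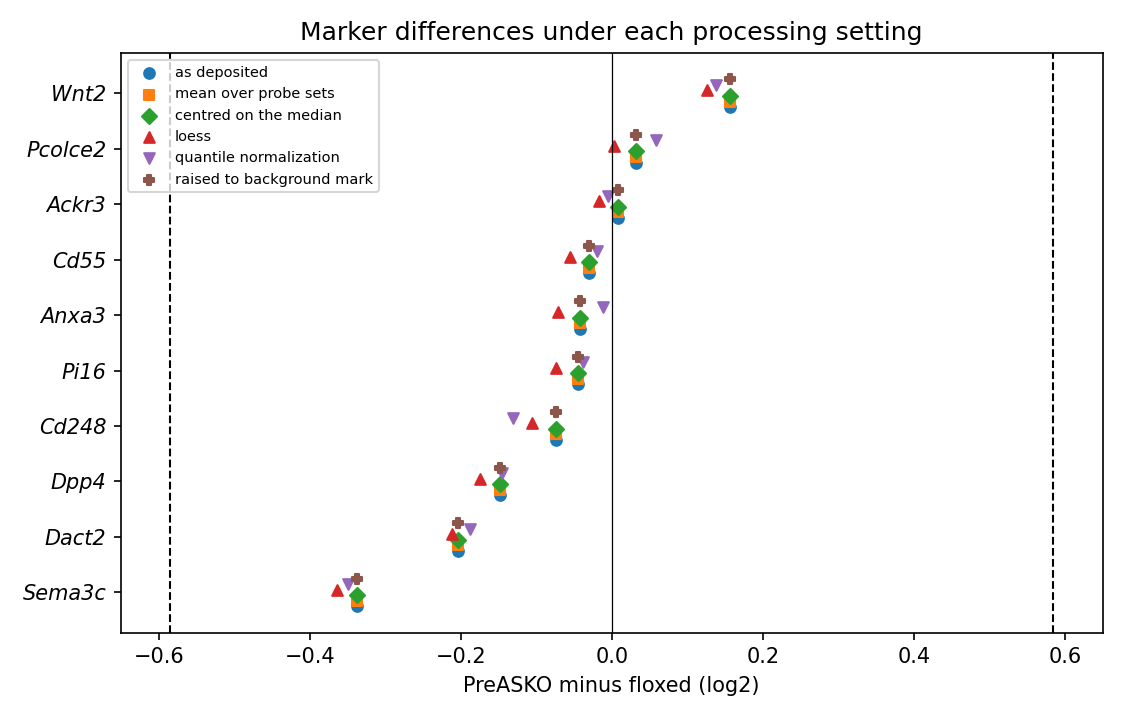
Difference PreASKO minus floxed (log2, horizontal axis) of the 10 markers under the deposited scaling and 5 other processing settings (symbols), with 1.5-fold dashed. Under loess and quantile normalization, the settings that could move these genes, no marker shifted by more than 0.056 and only Ackr3, at 0.01 as deposited, crossed 0.

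Of the 5 other settings, the mean over probe sets, the centring and the raising of values to the background mark could not move any marker, since each has 1 probe set, the median over all genes was 0 and all 10 lay above the mark. The loess correction and quantile normalization could, and under these the largest shift of a marker was 0.056, for Cd248 under quantile normalization. Sema3c ran from -0.36 to -0.34, Dpp4 from -0.17 to -0.14, Dact2 from -0.21 to -0.19 and Wnt2 from 0.13 to 0.16. The sign was kept under both by 9 of the 10 markers. The exception was Ackr3, whose difference turned from 0.01 to -0.02 after the loess correction and to slightly below 0 after quantile normalization, so that 8 of the 10 markers were then lower.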

How the data were processed

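RNA of PDGFRα+ cells was measured on 1 biotin-labelled array per group. The authors deposited 1 table of values for 35556 probe sets, summarised with RMA per the submitters' processing notes. RMA removes background, aligns the distributions of arrays and combines the probes of a set on the log2 scale. Version, filter and log base are not given in the sources used here; log2 was read from the range of the deposited values. RMA understates differences of dim genes, and would remove a shift common to most genes. The number of arrays limits the precision.

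Names came from the platform annotation, which may be outdated. It gave 1 gene for 21789 probe sets, several for 1621 and none for 12146. The 10 markers' gene identifiers matched their symbols in RefSeq (GRCm38.p6). The probe set with the highest mean stood for a gene with more than 1. PreASKO minus floxed was computed for each gene, with no test. All 10 markers were named, and in the other lists the genes past 1.5-fold and the 3 most negative and 3 most positive with at least 1 array above background. Other genes in the text were chosen after their values were seen. Markers and lists were chosen with earlier results of these data known, and the limits of 1.1-fold and 1.2-fold and the stratum of bright genes after seeing the data. The alternatives were the mean over probe sets, median centring, loess (span 0.3), quantile normalization, raising values to the background mark, keeping genes above it on 1 array or both, and a 2-fold limit. The steps were tested on simulated data. Python 3.11.15, pandas 2.3.3, numpy 2.4.6, statsmodels 0.14.6 and matplotlib 3.10.9 were used.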

Additional observations from a re-analysis of the deposited data

How the results depend on the processing

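With 1 array a group no replicate could be left out. No paired analysis was possible because there is a single array of each genotype. A shift of a value counted as a change from 0.1 on, and a change of a count above 1.5 times. No marker difference and no median of the 10 markers changed by that much, though only loess and quantile normalization could move them, and the count past 1.5-fold was 0 in every setting that kept this limit and at 2-fold. At 1.1-fold, chosen after seeing the data, 1 marker was higher and 3 were lower, and at 1.2-fold 0 and 1. The counts over all genes, 331 higher and 394 lower, became 161 and 103 with values raised to the background mark, 209 and 172 over genes with at least 1 array above it, 22 and 29 at 2-fold, 5541 and 5460 at 1.1-fold and 2723 and 2795 at 1.2-fold. Raising values to the mark moved the endothelial median to 0 and the mural median to -0.13, and keeping genes above the mark moved the mesothelial median to 0.34, over 2 genes. Of the partners, the 1 gene past the limit upwards (Fzd8) became 0 with values raised to the mark, above the mark and at 2-fold, and the 1 downwards (Tll1) became 0 under quantile normalization, with raised values and at 2-fold. The 3 lymphocyte markers past the limit became 1 with raised values, 2 above the mark and 0 at 2-fold. The 4 higher and 1 lower macrophage markers, the 1 lower endothelial marker (Kdr) and the 1 lower mural marker (Kcnj8) became 0 at 2-fold. The higher mural marker (Cnn1) and the lower epithelial marker (Krt17), both below background, became 0 with raised values, above the mark and at 2-fold, Krt17 also under loess and quantile normalization. Beyond how each setting is built, the cause was not tested. Signal over background limits the genes with a value under the olfactory 99th percentile of 5.43 in floxed or 5.33 in PreASKO: Dact2, Sox9, Uchl1, Plxna2, Tll1, Mmrn2, Wnt2b, Dact3, Cd3e, Cd8a, Cd8b1, Kdr, Pecam1, Egfl7, Rgs5, Myh11, Notch3, Cldn3, Cldn4, Bst1 and, in PreASKO, Nt5e and Fzd9.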

Other observations

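Other surface proteins by which stromal cells are sorted were read as a list chosen after the first results had been seen. Of 12 measured genes 6 were higher and 6 lower, with a median of -0.03 and a median size without sign of 0.21. The list holds dim genes, and its spread was not tested against that of the markers. Cd200, a surface ligand that restrains myeloid cells, was at 6.97 and 6.41, a difference of -0.56. Nt5e, which encodes the mesenchymal marker CD73, was dim, at 5.43 and 5.04, a difference of -0.38. Cd9, a tetraspanin gene, was at 8.77 and 9.08, a difference of 0.31, and Cd81, another tetraspanin gene used to mark beige progenitors, was at 11.3 and 11.4, a difference of 0.11. Vcam1 differed by 0.18 and the integrin gene Itgb1 by -0.07. Bst1, the CD157 gene, was below background in floxed and at least 1.41-fold higher with that value raised to the mark.

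Hyaluronan genes, also chosen afterwards because Has1 and Tnfaip6 are made by interstitial fibroblasts, were near level. Of 9 measured genes 5 were higher and 4 lower, with a median of 0.03 and none past 1.5-fold. The synthase genes Has1 and Has2 differed by 0.03 and -0.09, the hyaluronan-binding genes Tnfaip6 and Vcan by 0.04 each, and the receptor gene Cd44 by 0.19. Has3, Hapln1 and Hapln3 were below background on both arrays.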
